A study of Mus musculus with 4 samples.

Results

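Rac1, Rac2, Rac3 and Cdc42, the kinases Pak1 and Pak2, and the exchange factors Tiam1, Tiam2, Vav3 and Dock1 were followed in 2 kinds of mouse hair follicle cell in culture, those of the dermal papilla (DPCs) and those of the dermal sheath (DSCs). The 10 genes were taken by symbol from a table of 51826 genes, because RAC1 signalling is among the pathways that the study considered, and all 10 had enough counts to be compared. DPCs are the mesenchymal cells at the base of the hair follicle and DSCs line its outer wall. Both were grown out of the whisker follicles of EGFP-transgenic C57BL/6J mice, although the labels give the genotype as WT. Low-passage cells were at passage 3 and high-passage cells at passage 9. Each of the 4 combinations was sequenced as 1 library, so no difference below has a replicate check, and the passage or cell type of a library cannot be told apart from its culture or its preparation. Where 4 values are listed for a gene, they stand in the order DPCs at passage 3, DPCs at passage 9, DSCs at passage 3, DSCs at passage 9.

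Rac1 and Cdc42 are small GTPases that switch between an inactive GDP-bound and an active GTP-bound form. Exchange factors load them with GTP, GTPase-activating proteins switch them off, and GDP dissociation inhibitors hold them in the cytosol. Active Rac drives the sheet-like protrusions of a crawling cell and active Cdc42 its fine protrusions and its polarity, through the PAK kinases and through actin nucleation by the WAVE, WASP and Arp2/3 proteins. The mRNA level does not measure how much of a GTPase is in the active form.

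Libraries held between 34981284 and 47604059 counts. Values below are counts, CPM (counts scaled to the size of the library with TMM), and the authors' deposited FPKM, which also divides by transcript length and is used to compare levels between genes. A gene was called changed at a 4-fold difference, which is 2 on the log2 scale. The 95% intervals come from the exact Clopper-Pearson interval of the reads of 2 libraries, and they cover counting error only. They follow in parentheses after a log2 fold change. The marker check of the cells was mixed. Of 6 dermal papilla and sheath markers, 6 had over 3 counts in each low-passage library and 5 in each high-passage library. The exception was Lef1 in high-passage DPCs, with 2 counts, and Lepr in high-passage DSCs, with 0. Alpl stayed at 23 counts or lower and Lepr at 18 or lower. The sum of the 6, most of it Acta2, was 7280 and 1960 CPM in low- and high-passage DPCs, and 6050 and 4680 in DSCs. The summed fibroblast markers stood at 6400 CPM in high-passage DPCs, against 17300 to 25400 in the other libraries. Collagen genes make up most of that sum, while the fibroblast marker Pdgfra was highest in high-passage DPCs, at 811 CPM against 121 to 304. The 10 markers of dividing cells summed to 747 CPM in low-passage and 159 in high-passage DPCs, and to 627 and 248 in DSCs, and their part in the results below was not tested.

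The 3 Rac genes and Cdc42 code for closely related proteins, so their coding sequences in GENCODE M21 (GRCm38) were compared to see how far a sequencing read can tell them apart. Over the whole coding sequence Rac1 was 77.6% identical to Rac2, 76.9% to Rac3 and 65.9% to Cdc42, and Rac2 was 80.6% identical to Rac3. The longest run shared by any pair was 29 bases, between Rac1 and Rac2. None of the 4 genes shared a window of 50 bases with another of them, so reads of that length separate them. Cdc42 shared 2.19% of its windows with 3 other genes, of which none had more than 1 count in a library. Rac2 shared 1.29% with 26 genes, most with Epg5, which had between 1427 and 3007 counts, far above Rac2. The kinase gene Pak2 shared 3.94% with 226 genes. Rac1 has a different limit. On the opposite strand, 2309 of its 4496 exonic bases also belong to Daglb, and the strand setting of the counting was not given in the sources used here. Daglb itself had between 537 and 1007 counts, far below Rac1.

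Cdc42 and Rac1 stood far above the other members in every library. Mean deposited FPKM over the 4 libraries was 179 for Cdc42 and 130 for Rac1, then 18.9 for Pak2, 15.5 for Dock1 and 11.2 for Pak1. Tiam2 had 3.24, Rac3 3.13, Vav3 1.55, Tiam1 0.84 and Rac2 0.557. Pak2 lay above Dock1 and Pak1 in every library, and Dock1 above Pak1 in all but high-passage DSCs. The order of the lower genes changed between libraries. Vav3, at 4.03, lay above Tiam2 and Rac3 in high-passage DPCs, and at 0.32 below Rac2 in low-passage DSCs. Tiam2 and Rac3 changed places, as did Rac2 and Tiam1 in low-passage DPCs. Rac1 supplied between 96.5% and 97.6% of the summed FPKM of the 3 Rac genes.

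**Figure D1:**
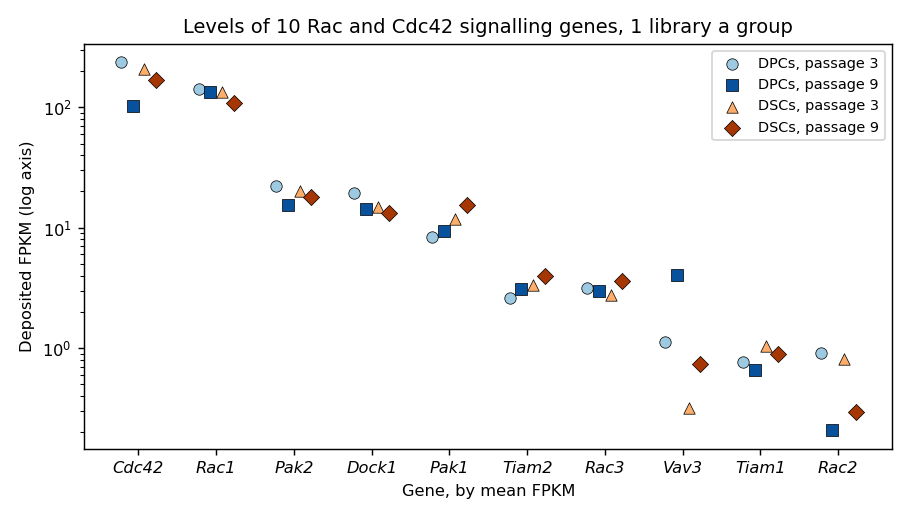
Deposited FPKM (log axis) of the 10 genes in each of the 4 libraries, with genes ordered by their mean. Cdc42 in high-passage DPCs, at 103, is the only one of its 4 points below those of Rac1 in the same library, and Vav3 in high-passage DPCs, at 4.03, lies above its other points.

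The first question was which of these genes differed between passage 3 and passage 9. In DPCs, Vav3 rose and Rac2 fell at least 4-fold, which is 2 of 10 genes, where 9.94% of the 16734 genes tested did so, 5.58% upward and 4.36% downward. In DSCs none of the 10 reached 4-fold, against 3.82% of all genes. At a 2-fold difference, Vav3 was higher and Rac2, Cdc42 and Tiam1 were lower in DPCs, which is 4 of 10 against 31.1% of all genes, 16.1% higher and 15.0% lower. In DSCs it was Vav3, higher, and Rac2, lower, which is 2 of 10 against 14.8%, of which 8.55% were higher and 6.21% lower. The median log2 fold change of the 10 was -0.15 in DPCs and -0.18 in DSCs, where the medians of all genes were 0.03 and 0.00. Counts of 10 genes this close to the background say nothing particular of them as a group, and the differences are described gene by gene.

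**Figure D2:**
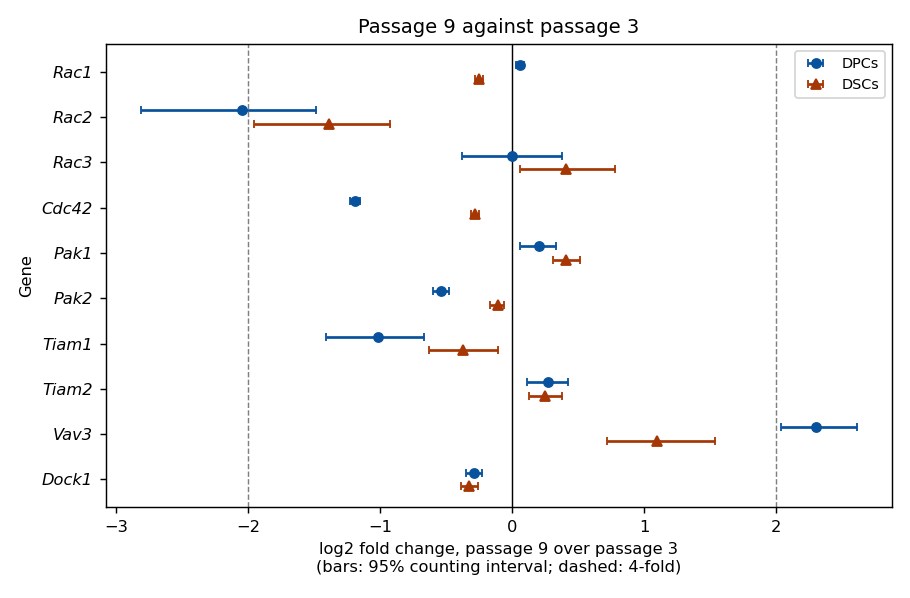
log2 fold change of each gene at passage 9 over passage 3 in DPCs (circles) and DSCs (triangles), with 95% counting intervals as bars and 4-fold as dashed lines. Vav3 at 2.30 and Rac2 at -2.05 in DPCs are the points past 4-fold, and the Cdc42 points lie apart at -1.19 and -0.28.

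Rac1 (ENSMUSG00000001847, chromosome 5, 143503634 to 143528036, minus strand) is the Rac of most tissues. It had 17618, 17898, 19897 and 20086 counts. In CPM these were 479, 499, 525 and 441, the narrowest range of any member, with high-passage DSCs the lowest. Its log2 fold change with passage was 0.06 (0.03 to 0.09) in DPCs and -0.25 (-0.28 to -0.22) in DSCs. The sign in DPCs was not stable, since the deposited FPKM of 143 and 133 gave -0.10. The overlap with Daglb applies to all of these values.

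Cdc42 (ENSMUSG00000006699, chromosome 4, 137319696 to 137357720, minus strand) had 19764, 8447, 19031 and 18835 counts. Only high-passage DPCs were low, at 235 CPM against 413 to 537 in the other 3 libraries. The level there was 2.28-fold lower than in low-passage DPCs, a log2 fold change of -1.19 (-1.23 to -1.15). In DSCs the change was -0.28 (-0.31 to -0.25). The deposited FPKM gave nearly the same values, -1.20 and -0.31. Per length, Rac1 was below Cdc42 in low-passage DPCs, with an FPKM ratio of 0.603, and in both DSC libraries, with 0.649 and 0.645, but above it in high-passage DPCs, with 1.30.

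Rac2 (ENSMUSG00000033220, chromosome 15, 78559169 to 78572783, minus strand) is the Rac of blood cells. It had 112, 25, 108 and 48 counts. Both low-passage libraries were high, at 3.04 and 2.85 CPM, and both high-passage libraries were low, at 0.697 and 1.05 CPM. The log2 fold change was -2.05 (-2.81 to -1.49) in DPCs and -1.39 (-1.96 to -0.93) in DSCs. The DPC value sits close to the 4-fold line, and it became -1.79 with a prior count of 10, -1.73 on the deposited FPKM with a pseudocount of 0.1 and -0.67 with a pseudocount of 1. The FPKM changes given for other genes use the pseudocount of 0.1.

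Markers of leukocytes moved with Rac2. Of 10 such markers, 9 had over 3 counts in some library, Cd3e of T cells had 0 counts in all 4, and Cd79a of B cells had 5 or fewer. Their summed level was 51.3 CPM in low-passage and 13.9 in high-passage DPCs, and 56.6 and 23.2 in DSCs. The 8 markers with over 10 counts in a library, among them the macrophage genes Csf1r and Adgre1 and the pan-leukocyte gene Ptprc, were lower at high passage in both cell types. Their changes ran from -2.85 to -1.03 in DPCs and from -2.80 to -0.69 in DSCs. For each 100 leukocyte marker counts there were 5.93, 5.02, 5.03 and 4.54 Rac2 counts. The part of leukocytes in the Rac2 values was not tested. In bulk RNA, fewer cells of a type and less RNA per cell cannot be told apart.

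**Figure D3:**
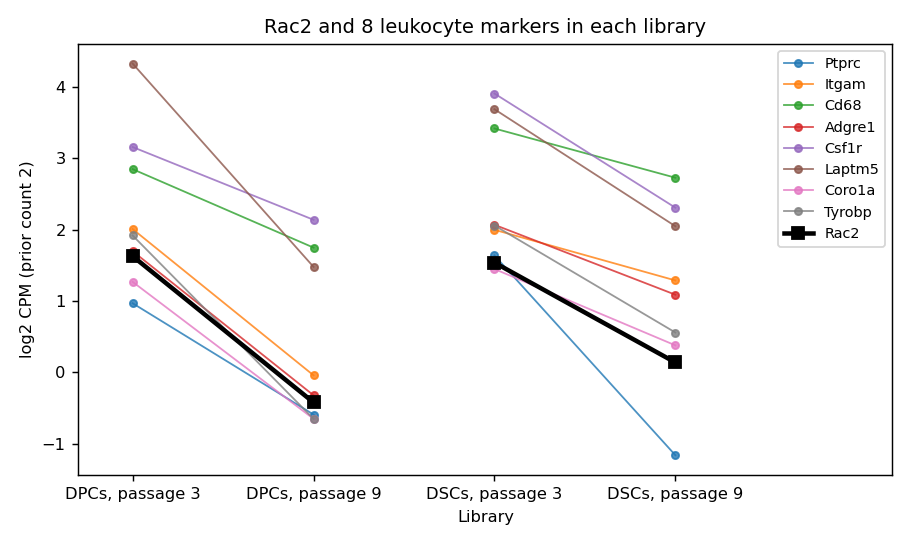
log2 CPM of Rac2 (black squares) and 8 leukocyte markers (coloured circles) in each library, with lines joining passage 3 and passage 9 of the same cell type. All 9 genes are lower at passage 9 in both cell types, Rac2 going from 1.63 to -0.42 in DPCs and from 1.54 to 0.14 in DSCs.

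Rac3 (ENSMUSG00000018012, chromosome 11, 120721470 to 120723969, plus strand), best known from the nervous system, had 122, 119, 109 and 175 counts. The 2 DPC libraries were at the same 3.32 CPM, a change of 0.00 (-0.38 to 0.38). In DSCs the change was 0.41 (0.06 to 0.78), with high-passage DSCs the highest at 3.84 CPM. That interval included 0 once counts were halved (-0.08 to 0.94), as would be right if both mates of each read pair had been counted. A change of Rac3 was therefore not resolved at this depth.

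Of the effector kinases, Pak2 was more abundant than Pak1 per length in every library. Both phosphorylate LIM kinases and other regulators of actin once bound by active Rac or Cdc42. Pak2 (ENSMUSG00000022781, chromosome 16, 32016290 to 32079342, minus strand) had 5093, 3418, 4993 and 5549 counts, which are 138, 95.2, 132 and 122 CPM. High-passage DPCs were again the lowest, with a log2 fold change of -0.54 (-0.60 to -0.48), while DSCs gave -0.11 (-0.17 to -0.06). Pak1 (ENSMUSG00000030774, chromosome 7, 97788541 to 97912381, plus strand) had 882, 986, 1367 and 2185 counts, which are 24.0, 27.5, 36.0 and 47.9 CPM. It was higher at passage 9, with 0.20 (0.06 to 0.33) in DPCs and a log2 fold change of 0.41 (0.31 to 0.51) in DSCs. The share of Pak1 in the summed FPKM of Pak1 and Pak2 thus went from 27.4% to 38.0% in DPCs and from 36.9% to 45.8% in DSCs. Neither kinase came near 4-fold.

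In DPCs, but not in DSCs, the passage changes of the 4 exchange factors lay further apart than those of the GTPases or the kinases. Vav3 (ENSMUSG00000033721, chromosome 3, 109340653 to 109685698, plus strand), an exchange factor that is switched on by tyrosine kinases, had 125, 607, 70 and 183 counts. In CPM these were 3.40, 16.9, 1.85 and 4.02, so high-passage DPCs were far above the rest and low-passage DSCs the lowest. It rose 4.92-fold in DPCs, a log2 fold change of 2.30 (2.04 to 2.61). In DSCs it was 2.14-fold higher, with 1.10 (0.72 to 1.54). The deposited FPKM gave 1.75 in DPCs, under the 4-fold line, and 0.99 in DSCs, and with a pseudocount of 1 they gave 1.24 and 0.39. Over all genes, 4.86% were at least 2-fold higher with passage in both cell types, and of the 10 members only Vav3 was.

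The deposited FPKM of Vav3 do not follow its counts in a fixed ratio. Dividing its count by its FPKM and by the library total gives a quotient with the unit of a length, which was 3135, 4304, 5642 and 5254 bases. For Cdc42 the same division gave between 2355 and 2366 bases in all 4 libraries. The quotient is not a measured transcript length, since for Rac2 it was 3438 to 3456 bases where the annotation holds 3103 exonic bases. How the FPKM were computed from the reads was not given in the sources used here.

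Tiam1 (ENSMUSG00000002489, chromosome 16, 89787111 to 89980080, minus strand), a Rac-specific exchange factor, had 191, 91, 259 and 241 counts, which are 5.19, 2.54, 6.83 and 5.29 CPM. High-passage DPCs were the lowest of the 4. The log2 fold change was -1.02 (-1.41 to -0.67) in DPCs and -0.37 (-0.63 to -0.11) in DSCs, where the interval included 0 once counts were halved. On the deposited FPKM the change in DPCs was only -0.21, and here too the quotient of count and FPKM differed, at 7017 bases in low-passage DPCs and 3975 in high-passage DPCs. The 2-fold difference of Tiam1 in DPCs thus depended on the unit.

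Its relative Tiam2 (ENSMUSG00000023800, chromosome 17, 3326573 to 3519397, plus strand) had 633, 744, 904 and 1293 counts, which are 17.2, 20.7, 23.8 and 28.4 CPM. Both cell types were slightly higher at passage 9, DPCs with 0.27 (0.11 to 0.42) and DSCs with 0.25 (0.13 to 0.38). Per length, Tiam2 lay above Tiam1 in every library, by 3.24-fold to 4.73-fold. Dock1 (ENSMUSG00000058325, chromosome 7, 134670654 to 135173639, plus strand), which activates Rac together with ELMO proteins, had 4602, 3668, 4118 and 3948 counts, which are 125, 102, 109 and 86.6 CPM. Its changes were -0.29 (-0.35 to -0.23) in DPCs and -0.33 (-0.39 to -0.26) in DSCs, but -0.44 and -0.18 on the deposited FPKM. Dock1 remained the most abundant of the 4 exchange factors per length, but its FPKM ratio to Vav3 went from 17.2 to 3.54 in DPCs and from 46.7 to 18.1 in DSCs.

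The second question was how DPCs differed from DSCs at the same passage. These comparisons share their libraries with those above, so they are not further evidence of the passage differences. At passage 3, 0 of the 10 genes reached 4-fold or 2-fold, against 4.3% and 13.3% of all genes. The widest gap at passage 3 was that of Vav3, at 0.86 (0.45 to 1.32) on the log2 scale of DPCs over DSCs, followed by Pak1 at -0.59 (-0.71 to -0.47) and Tiam2 at -0.47 (-0.62 to -0.32). The deposited FPKM put Vav3 further apart, at 1.55. Rac1 and Cdc42 differed little, with -0.13 (-0.16 to -0.10) and 0.10 (0.07 to 0.13), and the direction of Rac1 turned to 0.08 on the deposited FPKM.

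At passage 9 Vav3 was 4.17-fold higher in DPCs, with 2.06 (1.83 to 2.32), and was the 1 gene of 10 past 4-fold, against 6.42% of all genes. Tiam1 was 2.06-fold lower in DPCs, with -1.05 (-1.42 to -0.71), which made 2 of 10 at 2-fold against 20.1% of all genes. On the deposited FPKM Vav3 was at 2.31, and Tiam1 was at -0.40, close to its -0.39 at passage 3. Cdc42 followed with -0.81 (-0.85 to -0.78) and Pak1 with -0.80 (-0.91 to -0.69). Dock1 was higher in DPCs at both passages, with 0.20 (0.14 to 0.26) and 0.24 (0.17 to 0.30), or 0.38 and 0.11 on the deposited FPKM. For Rac2 and Rac3, the intervals of the difference between cell types included 0 at both passages, with Rac2 at 0.09 (-0.30 to 0.49) and -0.56 (-1.36 to 0.13) and Rac3 at 0.20 (-0.18 to 0.59) and -0.21 (-0.56 to 0.13).

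**Figure D4:**
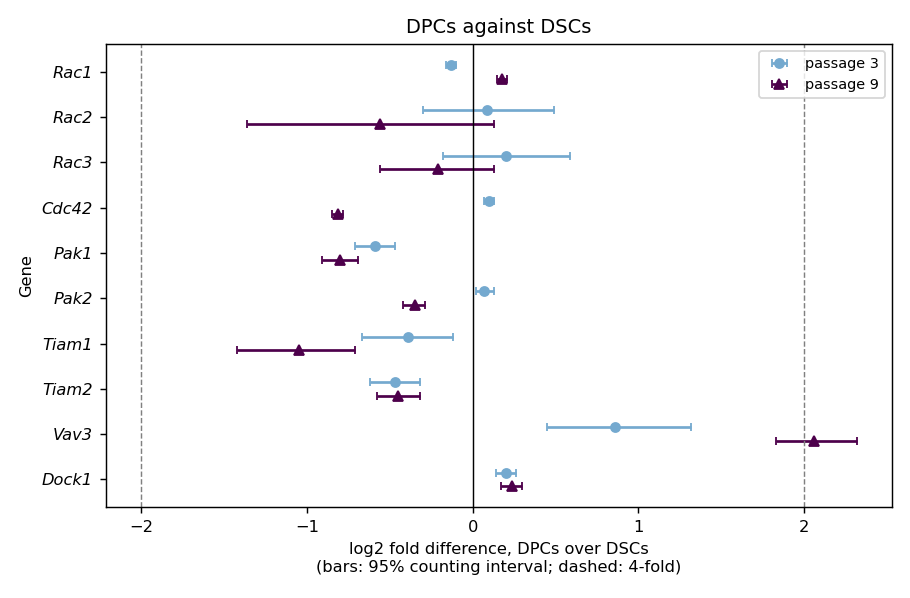
log2 fold difference of DPCs over DSCs for each gene at passage 3 (circles) and passage 9 (triangles), with 95% counting intervals as bars and 4-fold as dashed lines. Vav3 moves from 0.86 to 2.06 and Cdc42 from 0.10 to -0.81, while Dock1 and Tiam2 stay in place on this CPM scale.

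Vav3 had the widest range of the 10 over the 4 libraries, 3.16 on the log2 CPM scale, and Rac1 the narrowest, 0.25. Among 12192 genes with a mean count of at least 100, the genes whose centred log2 CPM lay nearest to Vav3 were Agpat2, Golph3l and Mark1, at Euclidean distances of 0.205, 0.208 and 0.233. Agpat2 had 905, 3799, 424 and 1238 counts. Nearest to Rac1 were Gak, Parp2 and Mdn1, at 0.00628, 0.0198 and 0.0388. These likenesses rest on 4 libraries.

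To see the 10 genes among others of their pathway, 125 further Rac and Cdc42 signalling genes were listed by role. This is a textbook list and not the one the study used. Of these, 124 were found by symbol and 117 had enough counts. In DPCs, 4 rose and 5 fell at least 4-fold, which is 7.69% against 9.94% of all genes. In DSCs, 1 rose and 2 fell, which is 2.56% against 3.82%. The medians were -0.20 in DPCs and -0.08 in DSCs. Signs were the same in both cell types for 80 of the 117, or 68.4%, against 70.4% of all genes. Between the cell types, 2 were higher and 1 lower in DPCs at passage 3, which is 2.56% against 4.3%, and 5 higher and 2 lower at passage 9, which is 5.98% against 6.42%.

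Among the Rac and Cdc42 relatives, Rhog, Rhoq, Rhoj and Rhou were all lower at passage 9 in DPCs, from -1.12 for Rhoq to -0.56 for Rhou, and 48.5% of all genes were lower by any amount. In DSCs 3 of these 4 were lower, from -0.51 to 0.07, against 49.7% of all genes. Rhoq is the close relative of Cdc42 known for its part in glucose transporter traffic. The 3 GDP dissociation inhibitors were also lower at passage 9, both in DPCs, with a median of -0.73, and in DSCs, with -0.29. Arhgdia, the widespread form, differed little, by -0.12 in DPCs and -0.27 in DSCs. Arhgdig fell from 137 to 14 counts in DPCs, by -3.10 (-4.16 to -2.46), and had 136 and 133 counts in DSCs, with -0.29 (-0.65 to 0.06). Arhgdib, the form known from blood cells, was instead set apart by cell type. It was higher in DPCs by 2.55 (2.46 to 2.64) at passage 3 and by 2.32 (2.22 to 2.42) at passage 9, on 6445 counts in low-passage DPCs and 1136 in low-passage DSCs. The leukocyte markers summed to 51.3 CPM in DPCs and 56.6 in DSCs at the same passage.

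Of the 13 exchange factors of the DOCK family and their ELMO partners, 8 were higher and 5 lower at passage 9 in each cell type. Over all genes, 48.5% were lower in DPCs and 49.7% in DSCs. Their median was 0.76 in DPCs and 0.08 in DSCs. In DPCs 15.4% of the 13 reached 4-fold against 9.94% of all genes, and 30.8% reached 2-fold against 31.1%. Dock3, an exchange factor known from neurons, rose from 19 to 204 counts in DPCs, by 3.34 (2.78 to 4.22), and was at 13 and 47 counts in DSCs, with 1.46 (0.68 to 2.60). Elmo1, a partner that Dock1 needs for full activity, rose from 149 to 620 counts in DPCs, by 2.08 (1.83 to 2.36), and in DSCs had 192 and 160 counts, with -0.52 (-0.84 to -0.22). At passage 9 Elmo1 was therefore 4.86-fold higher in DPCs than in DSCs. Of the 24 exchange factors of the Dbl family, the family of Tiam1 and Vav3, 2 fell at least 4-fold in DPCs and 0 rose. That is 8.33% against 9.94% of all genes, and the median was 0.05. Vav1, the blood cell relative of Vav3, had 25, 2, 26 and 27 counts, a change of -2.77 (-6.73 to -1.60) in DPCs. Ect2, which acts in the division of cells, fell from 1611 to 349 counts in DPCs, by -2.16 on the log2 scale, and was at -1.18 (-1.32 to -1.05) in DSCs. Prex1, named after its values were seen, was at 1.83 (1.69 to 1.99) in DPCs and 0.50 (0.30 to 0.71) in DSCs.

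The GTPase-activating proteins had medians near 0, at 0.13 and -0.02. Chn1, a Rac GTPase-activating protein, rose from 460 to 2340 counts in DPCs, by 2.38 (2.24 to 2.53), and went from 849 to 1847 in DSCs, with 0.85 (0.74 to 0.98). Its relative Chn2 fell in DSCs from 43 to 6 counts, by -2.70 (-4.63 to -1.87). Of the kinases, Pak6 had 10, 9, 0 and 28 counts. Set against a floor of 3 counts, it was 7.77-fold higher in high-passage than in low-passage DSCs. The counting interval of that log2 fold change began at 2.56. At passage 3 it was 3.43-fold higher in DPCs than in DSCs against the same floor, and its fitted value counts as past 4-fold. The interval there began at 1.21, and it included 0 once counts were halved, when it began at -0.08.

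Genes that were at least 2-fold lower at passage 9 in both cell types numbered 6 of the 117, or 5.13%, against 3.54% of all genes. These were Ect2, Racgap1, Iqgap3, Chn2, Was and Fmnl1, of which Chn2 in DPCs rested on 12 and 4 counts, with -1.21 (-3.64 to 0.17). Ect2 and Racgap1 act in cytokinesis. Racgap1 was at -1.91 (-2.03 to -1.79) in DPCs and -1.29 (-1.38 to -1.20) in DSCs, and Iqgap3 at -1.73 (-1.91 to -1.56) and -1.02 (-1.14 to -0.89). The 10 markers of dividing cells were lower in the same libraries, from -3.45 to -1.04 in DPCs and from -1.93 to -0.54 in DSCs, and their part was not tested. Was, the WASP of blood cells, was the 1 gene of the list past 4-fold in both cell types, where 0.508% of all genes fell so. It had 24 and 4 counts in DPCs, a change of -2.11 (-4.54 to -1.01), and 35 and 2 in DSCs, with -3.36 (-7.50 to -2.43). Fmnl1, a formin of leukocytes, was at -2.30 (-3.43 to -1.59) and -1.50 (-2.09 to -1.03). For Was and Fmnl1 in both cell types, and for Vav1 in DPCs, the leukocyte markers moved the same way as they did with Rac2. Vav1 did not follow these markers in DSCs, where it had 26 and 27 counts, a change of -0.2 (-1.04 to 0.62). Dock2 fell with them in DSCs, by -1.86 (-2.56 to -1.35), but differed little in DPCs, with 32 and 27 counts and -0.2. The part of leukocytes in the values of these genes was not tested.

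All 9 listed genes of the Arp2/3 complex, which nucleates branched actin, were lower at passage 9 in DPCs, as were 48.5% of all genes. They ran from -1.46 for Arpc5 to -0.20 for Arpc3, with a median of -0.65. None reached 4-fold. In DSCs 5 were lower and 4 higher, where 49.7% of all genes were lower. The median there was -0.15, and Arpc5 was higher by 0.86 (0.79 to 0.93). At passage 9 all 9 were lower in DPCs than in DSCs, as were 50.9% of all genes. At passage 3, 2 of the 9 were lower, with a median of 0.01, where the median of all genes was 0.0. The WAVE complex, which links Rac to Arp2/3, had no such common direction with passage in DPCs. There 5 of 11 were higher and 6 lower, where 48.5% of all genes were lower. Its member Abi3 rose from 16 to 137 counts in DPCs, by 2.99 (2.38 to 3.98), and had 80 and 88 counts in DSCs. Wasf2 was at -1.25 in DPCs.

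**Figure D5:**
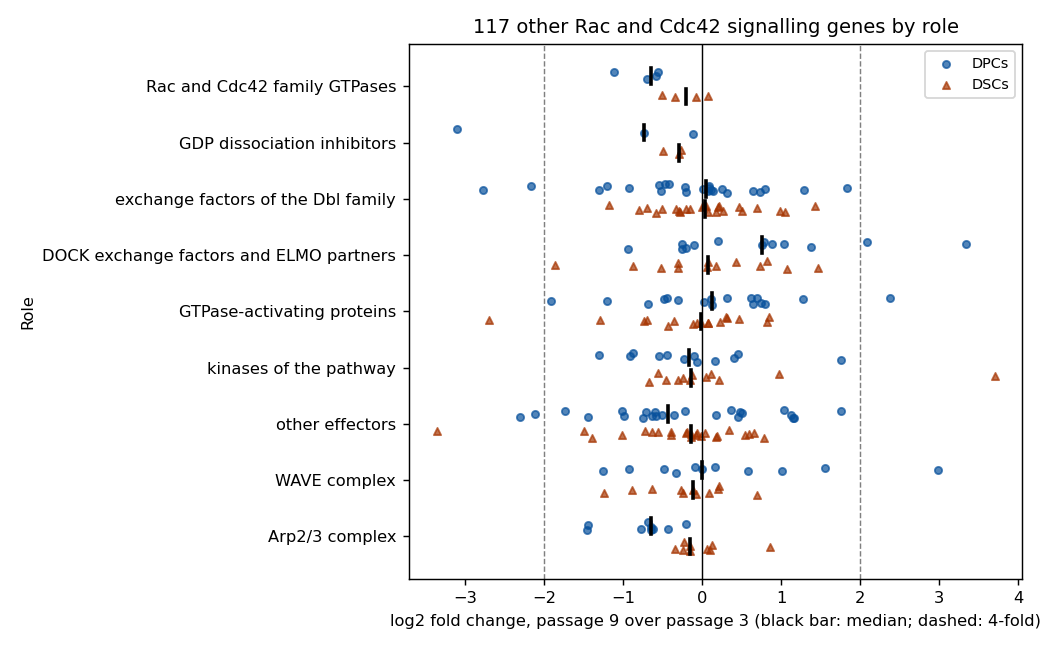
log2 fold change at passage 9 over passage 3 of the 117 other Rac and Cdc42 signalling genes, by role, in DPCs (circles) and DSCs (triangles), with black bars for medians and dashed lines at 4-fold. All Arp2/3 points of DPCs lie below 0, as do 48.5% of all genes, with a median of -0.65. The DOCK and ELMO median of DPCs lies at 0.76.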

How the data were processed

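RNA of 4 cultures (DPCs and DSCs at passage 3 and passage 9, 1 library each) was sequenced by the authors as paired ends after poly-T selection; the labels name another library kit. The authors deposited raw counts per gene, which are not normalized, and FPKM per library, which they normalized by length and depth. The submitters' processing notes list Bowtie 0.12.2 and the builds mm8 and mm9 with no role. The deposited positions are those of GRCm38: of 51826 IDs, 51633 were in GENCODE M21 and 94.1% of these had identical positions. The counting program and its strand setting were not given in the sources used here. Even counts were in excess in all libraries: 1339 genes stood at 2 counts and 583 at 3 in DPCs of passage 3.

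Counts were scaled with TMM in edgeR 4.0.16 (R 4.3.3), and log2 CPM used a prior count of 2. The 16734 genes with a mean count of at least 10 were compared. Fold changes are differences of log2 CPM, called at 4-fold, the study's threshold. With 1 library a group no test was made, and no p-value is given. Intervals at 95% are exact Clopper-Pearson intervals of the share of one library in the reads of both (scipy 1.17.1), a comparison of libraries and not of conditions. A library at 0 counts was set to a floor of 3 counts, between 0.0658 and 0.0836 CPM. The calculation was tested on simulated data. Members, gene lists and tests were chosen with earlier results of these data known. Genes named from the pathway list are those past 4-fold in both cell types and the 5 largest of each comparison past 4-fold; others at the ends of a role's range, or at least 2-fold in both cell types, were named after their values were seen. Coding sequences were aligned with Biopython 1.88. A withheld gene and sequence are not reported here. Alternatives were DESeq2 1.42.0 size factors, total counts, upper-quartile scaling, prior counts of 0.5 and 10, no filter, a mean count of at least 100, FPKM with pseudocounts of 0.1 and 1, halved counts and a 2-fold threshold.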

Additional observations from a re-analysis of the deposited data

Results flagged for a closer look

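Some genes had changes with passage in opposite directions in DPCs and DSCs, with counting intervals on opposite sides of 0. With 1 library a group, none of these differences was tested. Among the 10 genes, Rac1 was the only such case, with 0.06 in DPCs and -0.25 in DSCs, a difference of 0.31, and on the deposited FPKM both changes were below 0.

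Of the 117 other signalling genes 25 had intervals on opposite sides, or 21.4% against 11.6% of all genes tested. Such intervals narrow as counts rise, so these 2 shares are not like for like. A mean count of at least 100 was reached by 105 of the 117, and by 12192 of the 16734 genes tested. Signs alone were the same for 68.4% of the list and 70.4% of all genes. For 4 of the 25 the changes lay at least 4-fold apart, or 3.42% against 2.21%. Kalrn, an exchange factor related to Trio, was at -1.21 in DPCs and 1.05 in DSCs, a difference of -2.26. Elmo1 was at 2.08 and -0.52, a difference of 2.60. Iqgap2, a scaffold bound by Rac and Cdc42, was at 1.04 and -1.40, a difference of 2.44. Arpc5 was at -1.46 and 0.86, a difference of -2.32.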

How the results depend on the processing

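No paired analysis was made, since pairing the passages by cell type would take the 2 cell types as replicates of each other. No library could be left out because each group had 1 library. Of 396 values of the 10 genes under other settings, 4 changed sign, all of them Rac1 on the deposited FPKM, with passage in DPCs and between cell types at passage 3, where the main value was at most 0.13 from 0. Scaling with DESeq2 size factors, upper quartiles or total counts moved no value of the 10 genes by more than 0.10 and no count of calls by more than 1.5 times. Halved counts, prior counts of 0.5 and 10 and the filters left each value inside its counting interval, while FPKM moved values by up to 0.81 and 1.38 with pseudocounts of 0.1 and 1.

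Calls depended on thresholds near which few counts lie. Among the 10 genes, 2 were called with passage in DPCs, and this became 1 with a prior count of 10, 1 at a mean count of at least 100 (which leaves Rac2 out), 0 with either FPKM pseudocount and 4 at 2-fold. In DSCs 0 became 2 at 2-fold. For DPCs over DSCs at passage 9, 1 became 0 with an FPKM pseudocount of 1 and 2 at 2-fold. Of the 117 pathway genes, 9 were called in DPCs, which became 4 at a mean count of at least 100, 5 and 1 with FPKM pseudocounts of 0.1 and 1, and 34 at 2-fold. The 3 called in DSCs became 0 with a prior count of 10, 0 at a mean count of at least 100, 1 and 0 with FPKM and 14 at 2-fold. The 3 called between cell types at passage 3 became 1 with a prior count of 10, 5 without a filter, 1 at a mean count of at least 100, 1 with either FPKM pseudocount and 10 at 2-fold. The 7 called at passage 9 became 1 with an FPKM pseudocount of 1 and 21 at 2-fold. A larger prior count or pseudocount shrinks the fold of low genes by construction.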

Other observations

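Markers of other cell types were present at low levels. Keratinocyte markers summed to 2.07, 1.31, 1.79 and 2.04 CPM in the order of libraries used above, with Krt5, Krt14, Krt15, Krt1 and Cdh1 at 0 counts. Melanocyte markers summed to 11.9, 28.3, 15.4 and 13.0 CPM, with Tyr, Dct and Mlana at 0. Most of that sum was Mitf, with 394, 980, 435 and 544 counts. Endothelial markers summed to 2.53, 0.111, 5.64 and 1.08 CPM, and Schwann cell markers to 10.7, 6.35, 21.9 and 10.7 CPM. Skeletal muscle markers summed to 40.6, 0.418, 48.5 and 24.0 CPM, with Myod1 and Ckm at 0. That last sum is nearly all Acta1, with 1495, 13, 1837 and 1083 counts, while Myog, Des and Myh3 had at most 11 counts. It therefore stands for 1 gene and not for the list, and which cells the Acta1 counts came from was not tested. The part of these cell types in the values of the 10 genes was not tested.

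Lef1, a nuclear factor of Wnt signalling and a dermal papilla marker, had 508, 2, 101 and 55 counts, and Sox2, a marker of some dermal papillae, had 1677, 1491, 269 and 178 counts.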
